A study of Mus musculus with 3 samples.

Results

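C1q macrophages were single lung leukocytes whose RNA held the chains of complement C1q without the genes of the neighbouring macrophage types. A cell was a member when it had more than 200 genes and under 10% mitochondrial unique molecular identifiers (UMIs, each a counted RNA molecule), at least 2 UMIs and 0.1% of its UMIs on C1qa, C1qb and C1qc together, under 0.3% on a gene set with Saa3, Serpinb2 and Ccl24, under 0.1% on the alveolar macrophage genes Ear1, Marco, Plet1, Atp6v0d2 and Krt79, at most 2 UMIs of Cd79a and Cd3e, and under 2% on S100a8 and S100a9. Of 22265 cells in 3 libraries, 21425 were kept and 278 were members, of which 269 came from 1 library, that of lungs 3 days after transplantation. The members were thus chosen by their own RNA, and their C1q chains and the genes that go with them are given as a description, with no test.

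The study asked how B cells act in lung ischemia/reperfusion injury. In the transplanted groups, a left lung of a B6 CD45.2 donor was held for 60 minutes at 4 °C and 45 minutes at 28 °C, placed orthotopically in a B6 CD45.1 recipient and reperfused for 2 hours or 3 days. In the naive group the left lung came from untouched B6 mice. All mice were C57BL/6J by the labels, which give no age, though the paper's methods state a range of weeks for all mice. The methods list B6 CD45.1 mice as B6.SJL-Ptprca Pepcb/BoyJ. All 3 groups were wild type and received no drug. Each group was 1 library of cells pooled from 2 mice and sorted with antibodies to CD45.1 and CD45.2. The series describes the sorted cells as recipient CD45.1 cells in all 3 groups, although naive mice have no recipient. The counts carry no donor or recipient label, so the origin of the members was not tested.

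C1qA, C1qB and C1qC assemble into C1q, the recognition unit of the classical complement pathway, which binds antibody complexes and apoptotic cells. Unlike most complement proteins, which the liver makes, C1q comes largely from macrophages and some dendritic cells. In the resting mouse lung, C1q marks interstitial macrophages, which lie outside the airspace and are commonly divided into Lyve1+ Folr2+ cells near vessels and MHC II-high cells near nerves and airways. Alveolar macrophages, the airspace type, have little C1q. Monocytes that enter an injured lung can become macrophages, losing Ly6c2 and gaining C1q, Apoe and Mrc1.

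The 3 chain genes lie side by side on the minus strand of chromosome 4 (GRCm38), C1qb at chr4:136880129-136886187, C1qc at chr4:136889804-136893065 and C1qa at chr4:136895917-136898803. Because they define the cells, the bases upstream of 2 of them are shown, from RefSeq promoter entries on GRCm38.p6, which give 250 bases before RefSeq's start of the gene. GENCODE, which gave the gene coordinates, starts C1qc further upstream, so the 151 bases of its entry inside the GENCODE gene were left out. Capitals mark matches to TGCTGA, a half-site bound by MAF family factors, or to GAGGAA, the core bound by PU.1, searched on both strands. C1qb is shown from chr4:136886201-136886450 and C1qc from chr4:136893066-136893164, both read 5′ to 3′ along the minus strand.
C1qb: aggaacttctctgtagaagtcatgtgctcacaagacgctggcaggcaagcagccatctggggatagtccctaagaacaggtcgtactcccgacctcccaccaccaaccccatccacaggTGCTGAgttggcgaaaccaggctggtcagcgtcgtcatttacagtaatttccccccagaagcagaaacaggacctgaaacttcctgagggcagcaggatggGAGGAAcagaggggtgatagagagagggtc
C1qc: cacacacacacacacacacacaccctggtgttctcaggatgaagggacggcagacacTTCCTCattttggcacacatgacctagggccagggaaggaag
The C1qb stretch held 1 match to each motif, and the C1qc stretch held 1 match to GAGGAA on the reverse strand. Among 32851 RefSeq promoters of 250 bases, the length of the C1qb stretch but longer than the 99 bases of C1qc, 16.1% held TGCTGA, 23.3% held GAGGAA and 3.68% held both. These are letter matches and say nothing about binding. Maf, which encodes a MAF family factor, was at 209 CPM (UMIs of a gene per 1000000 UMIs summed over a class) in the members at 3 days.

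Members made up 0.266% of the kept cells in the naive library (7 of 2628), 0.0194% at 2 hours (2 of 10283) and 3.16% at 3 days (269 of 8514). The exact 95% binomial intervals were 0.107% to 0.548%, 0.00236% to 0.0702% and 2.80% to 3.55%. These and all later intervals cover counting error alone, because 1 library per group leaves no spread between replicates and no test. Over all kept cells, members or not, the C1q chains were at 46.5 CPM in naive lungs (1288 UMIs in 21 cells), 1.87 CPM at 2 hours (20 UMIs in 11 cells) and 642 CPM at 3 days (44786 UMIs in 2173 cells). The 3-day value was the highest and the 2-hour value the lowest on both measures, and none of the 3 intervals of either measure overlapped. The libraries differed in depth, with 7729.5, 878 and 5797 UMIs in the median kept cell and 28538529, 10749100 and 70750470 UMIs in all, and the naive library was counted with another version of the counting software. With every cell thinned to 500 UMIs before the rule was applied, the 3-day share was 2.13% and no cell of the 2-hour library passed, which allows a share of up to 0.0306% of the 9814 cells deep enough (3 counts over the total, as for every 0 here, or 0.0376% as the upper end of the exact 95% interval).

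**Figure D1:**
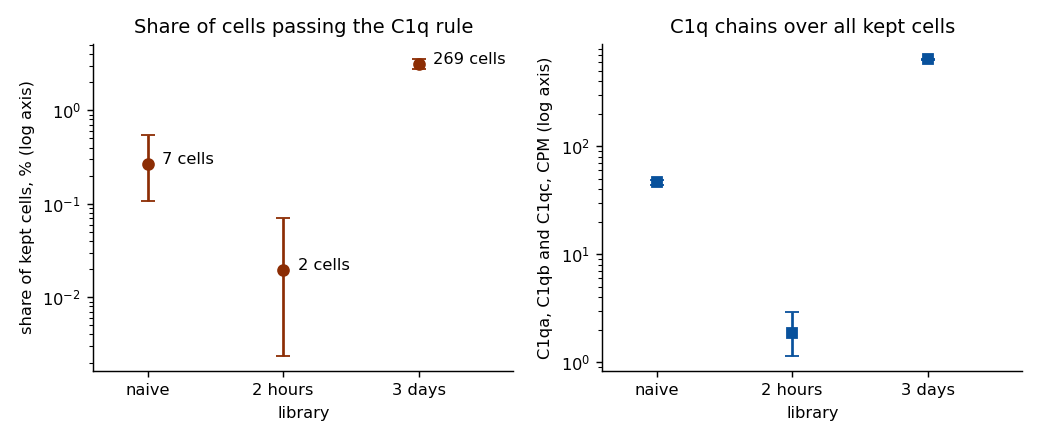
The left panel plots the share of kept cells that passed the C1q rule in each library, with the number of cells (the 2 at 2 hours lacked most macrophage genes), and the right panel the C1q chains over all kept cells in CPM. Both axes are logarithmic and bars are 95% counting intervals; the 3-day library stands at 3.16% and 642 CPM, the 2-hour library at 0.0194% and 1.87 CPM.

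The 2 cells that passed the rule at 2 hours went against the name. They had 5 C1q UMIs each among 2915 and 3348 UMIs, and in the second cell all 5 were C1qb. Neither had a UMI of Apoe, Ms4a7, Lyz2 (lysozyme), Csf1r (the receptor for the macrophage growth factor CSF1), Adgre1 (F4/80), Cd68, Fcgr1 or Mertk. Of the 12 core macrophage genes, 3 had a UMI in the first cell and 1 in the second, and over both cells Cd14 had 3 UMIs, Cd63 4 and Itgam (CD11b) 2. The first held 68 UMIs of Ccl5, a lymphocyte chemokine, and the second held 21 of Ccl17, 21 of Ccl22 and 17 of Ccr7, genes known from migratory dendritic cells. Both had at least 2 UMIs of the T cell receptor genes Cd3d, Cd3e and Cd3g, both carried MHC II RNA (44 and 76 Cd74 UMIs), and 0 of 2 was called a doublet. They are called here the 2 C1q-positive cells of the 2-hour library.

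The 7 naive cells carried macrophage genes. They had 3641 to 12201 UMIs and 35, 287, 178, 46, 104, 102 and 111 C1q UMIs, and Lyz2 was seen in all 7 (41 to 165 UMIs). Apoe, which encodes the lipid carrier apolipoprotein E, had 47, 302, 112, 80, 334, 421 and 0 UMIs in the same order of cells. The 7th cell stood apart, with no Apoe, Ms4a7 or Pf4 but 27 UMIs of Ccr2, 148 of H2-Aa and 498 of Cd74, while the other 6 had no Ccr2 UMI. H2-Aa, an MHC II chain, ranged from 1 to 148 UMIs, with 1 UMI in 2 of the cells. Among genes of Lyve1+ Folr2+ macrophages, the scavenger receptor Cd163 was seen in 5 of 7 cells and Lyve1 in 1 (2 UMIs). Mrc1, the mannose receptor CD206, had 0 to 31 UMIs. Spp1 and Saa3 had no UMI in any of the 7, which allows up to 46.4 CPM over their 64621 UMIs.

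At 3 days the members carried the genes of macrophages. The rule did not use Apoe or Lyz2, which were at 7776 and 7302 CPM against 351 and 778 CPM in T cells, a class that should lack them. With cells thinned to 2000 UMIs, Apoe was seen in 224 of 250 members and 126 of 966 T cells. Csf1r was at 722 CPM against 68.0 CPM in T cells, Adgre1 at 416 against 24.7 CPM, Cd14, the endotoxin coreceptor, at 2228 against 113 CPM, and Mertk, a receptor for apoptotic cells, at 41.2 against 0.891 CPM. Monocytes carry some of these genes too. The 12 core macrophage genes summed to 13733 CPM in the members but 21929 CPM in classical monocytes. Of 11 compared between these classes, 3 were at least 2-fold higher in the members and 1 lower. The members were deep, with a median of 15525 UMIs (594 to 54698) and 3533 genes, and a median of 3.74% mitochondrial UMIs. They held 72 C1q UMIs in the median cell (2 to 498), which was 0.459% of its UMIs (0.102% to 1.65%). Scrublet called 1 of the 269 a doublet, against 306 of the 8514 kept cells, and 44 members had a UMI of Cd79a, Cd3d, Cd3e or Cd3g. The 9 T cell genes summed to 37.6 CPM in the members against 3591 CPM in T cells, the 9 B cell genes to 158 CPM with Ighm as the most abundant, and none of either list was at 0. The neutrophil genes summed to 909 CPM with S100a9 leading, and S100a8 itself was at 188 CPM in the members and 189 CPM in T cells, which do not make it. Without members that held a Cd79a or Cd3 UMI or at least 0.5% of UMIs on S100a8 and S100a9, the 3-day share was 2.51%.

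C1q UMIs were also seen in cells of other classes at 3 days, and where they came from was not tested. A C1q UMI was seen in 15.7% of T cells (median depth 8316.5 UMIs), 18.2% of B cells (5077.5 UMIs) and 28.3% of classical monocytes (17525 UMIs), where the chains were at 195, 193 and 37.1 CPM, against 5867 CPM in the members. Classical monocytes had by definition failed the C1q limits of the rule, which capped their value. After thinning each cell to 2000 UMIs, C1qa was seen in 89.2% of 250 members (95% interval 84.7% to 92.8%) and in 2.28% of 966 T cells, and 19 members with fewer UMIs were left out. The members held 54.7% of the C1q UMIs of the library on 5.98% of its UMIs. Saa3 macrophages, the other large macrophage class at 3 days, had 26.8% of the C1q UMIs on 6.36% of all UMIs. They were 376 cells with at least 0.3% of their UMIs on the gene set with Saa3, Serpinb2 and Ccl24 that the rule limits. C1q itself therefore was not particular to the members, and 352 of the 653 C1q-positive cells at 3 days were left out by that limit.

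Cells near the C1q limit differed from the members as a whole. Near the C1q limit, 40 cells inside (0.1% to 0.2%) had Apoe at 2521 CPM and Ms4a7 at 17.6 CPM, and 26 cells outside (0.05% to 0.1%) had 3305 and 160 CPM. On both sides of the C1q limit Apoe and Ms4a7 were below their levels over all members (7776 and 298 CPM).

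Apart from the C1q chains, the genes that marked the members most against all other cells in both the naive and the 3-day library were Apoe, Fcrls, Lgmn, Ms4a7, Aif1, Cxcl16, Mrc1, Dab2, Selenop, C3ar1 and Trem2, a ranking chosen after the values were seen because the 2-hour cells had no UMI of Apoe, Ms4a7 or Lyz2. Apoe was at 20055 CPM in the 7 naive cells and 7776 CPM in the 269 cells at 3 days. Ms4a7, a membrane protein gene of macrophages, was at 526 and 298 CPM, and Fcrls, an Fc receptor-like gene best known from microglia, at 573 and 313 CPM. Trem2, a lipid-sensing receptor, was at 294 and 329 CPM, and Lgmn, the lysosomal protease legumain, at 789 and 1354 CPM. The naive values rest on 7 cells and other counting software, so they stand side by side with no ratio. By the rule that took the lowest of all 3 libraries, the genes outside the C1q chains were Cxcl16, Dab2, Cd83, Tmem176a, Sdc4, Lmna, Cd63, H2-Eb1, H2-Ab1, Dhrs3, Creb5 and Fcgr2b. Several of these rest on 1 to 3 UMIs at 2 hours.

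Within the 3-day library, the members were compared with Saa3 macrophages and with classical monocytes, and H2-Eb1, Cd74, H2-Ab1 and H2-Aa had the largest ratios of CPM plus 50 to Saa3 macrophages among the genes called higher. A gene was called when its CPM plus 50 differed at least 2-fold between classes, and it was compared only if its mean reached 100 CPM. Against Saa3 macrophages, 57 of 1658 genes were called higher (3.44%) and 77 lower (4.64%), with a median log2 ratio over all genes of -0.08. Against classical monocytes, 123 of 1583 were called higher (7.77%) and 68 lower (4.3%), with a median of -0.07. The counts were larger after thinning. In cells thinned to 500 UMIs, 119 genes were called higher and 156 lower than in Saa3 macrophages, and 196 higher and 198 lower than in classical monocytes, where the excess of higher calls was thus lost. The genes named next from these contrasts were taken as the largest calls after the values were seen, and list medians use CPM plus 50 while single-gene log2 ratios are of CPM alone.

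MHC II molecules present peptides to CD4 T cells, and their genes led the contrast with Saa3 macrophages. Of 8 MHC II list genes compared, 6 were called higher and none lower, with a median log2 ratio of 2.33 against -0.08 over all genes. H2-Eb1 was at 2613 CPM in the members, 215 CPM in Saa3 macrophages and 283 CPM in classical monocytes, a log2 ratio of 3.60 to the former (95% counting interval 3.51 to 3.70). Cd74, the invariant chain, was at 5679, 610 and 1124 CPM. H2-Aa was at 3234, 442 and 488 CPM, and H2-DMa, which loads peptides, at 335, 52.3 and 193 CPM. B cells of the same library had more Cd74 than the members (8721 CPM), and so did the 10 alveolar macrophages (11179.6 CPM), where the MHC II list summed to 35440.2 CPM against 18218 CPM in the members.

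The same contrast held a group of genes known from tissue macrophages. Ms4a7 was at 298 CPM in the members and 14.4 CPM in Saa3 macrophages, Fcrls at 313 and 11.1 CPM, and Cx3cr1, the fractalkine receptor, at 415 and 50.7 CPM. Of all Ms4a7 UMIs in the library, 67.8% lay in the members, and of all Fcrls UMIs 78.3%. In cells thinned to 2000 UMIs, Ms4a7 was seen in 30.8% of members, 2.42% of Saa3 macrophages and 0.518% of T cells, and Fcrls in 26.8%, 1.61% and 0.311%. Apoe was at 7776 CPM in the members against 1762 CPM, Tgfbi, an extracellular matrix protein gene, at 1204 against 258 CPM, and Aif1 (IBA1) at 368 against 70.1 CPM. Ccr2, the receptor by which classical monocytes follow CCL2 and CCL7, was at 831 CPM in the members, between 302 CPM in Saa3 macrophages and 1094 CPM in classical monocytes, and it was seen in 71.2% of thinned members. The class of classical monocytes was chosen partly by Ccr2 UMIs.

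**Figure D2:**
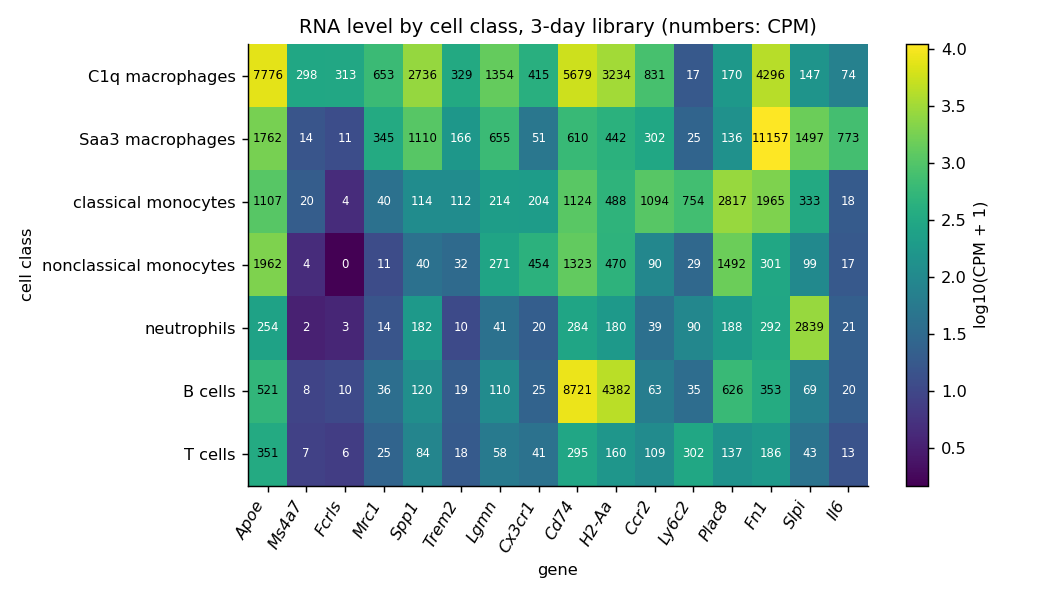
Each cell of the grid gives a gene's CPM in a cell class of the 3-day library, and its colour gives log10(CPM + 1). C1q macrophages are the top row, with Ms4a7 at 298 CPM and Fcrls at 313 CPM against at most 20 CPM in the other 6 classes, while Cd74 at 5679 CPM is exceeded by B cells and, not plotted, by the 10 alveolar macrophages.

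Among the 77 genes lower in the members than in Saa3 macrophages were Il6, which encodes an inflammatory cytokine, Slpi, Cxcl3 and Acod1. Il6 was at 74.1 CPM against 773 CPM and was seen in 55 of 269 members, and the 10 highest cells held 73.8% of its UMIs. Slpi, a secreted protease inhibitor, was at 147 against 1497 CPM, the neutrophil chemokine gene Cxcl3 at 124 against 929 CPM, and Acod1, which makes itaconate, at 53.7 against 465 CPM. Of 11 chemokine genes compared, 6 were called lower and 1, Cxcl16 (450 against 82.8 CPM), higher, with a median log2 ratio of -1.07. Ccl6 was at 1240 against 4750 CPM and Cxcl2 at 2451 against 5647 CPM. Of 12 antioxidant genes, 5 were called lower and none higher (median -0.90), and of 10 hypoxia and glycolysis genes, 2 were lower and none higher (median -0.71). Hmox1, heme oxygenase 1, was at 326 against 876 CPM and Ldha, lactate dehydrogenase A, at 263 against 529 CPM. Fn1, fibronectin, was at 4296 against 11157 CPM. Since the rule removed cells rich in Saa3, Serpinb2 and Ccl24, part of this direction was set by the choice of cells.

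Ccl2 and Ccl7, which encode ligands of CCR2 that draw classical monocytes to the lung, were at like levels in the members and Saa3 macrophages. Ccl7 was at 252 CPM in the members, 241 CPM in Saa3 macrophages, 13.4 CPM in classical monocytes, 10.2 CPM in B cells and 5.24 CPM in T cells. Ccl2 was at 474 CPM in the members, 486 CPM in Saa3 macrophages and 136 CPM in classical monocytes. Both ratios to Saa3 macrophages had counting intervals that included 0, at -0.04 (-0.13 to 0.05) for Ccl2 and 0.06 (-0.06 to 0.19) for Ccl7 on the log2 scale. For the 4 ligands summed the log2 ratio was 0.04, and 0.45 after thinning to 500 UMIs. Ccl7 was uneven among members, with a UMI in 74 of 269 cells and 59.7% of its 1050 UMIs in the 10 highest cells. Ccl2 was seen in 141 members. Ccl12 was rare, at 30.9 CPM in 29 cells, but the members held 72.1% of its UMIs in the library. Ccl8, known from Lyve1+ Folr2+ macrophages, had 40 UMIs in 8 cells. In the naive library 1 cell held 25 Ccl8 UMIs and another 26 Ccl7 UMIs, and the 2 C1q-positive cells at 2 hours held none of the 4.

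Against classical monocytes the members carried less monocyte RNA and more RNA for lipid handling. Of 9 classical monocyte genes compared, 7 were called lower and none higher, with a median log2 ratio of -2.48. Ly6c2 was at 16.8 against 754 CPM, Plac8 at 170 against 2817 CPM and Vcan, versican, at 111 against 847 CPM. Classical monocytes were chosen by their UMIs of Ly6c2, Ccr2 and Vcan, which are on this list. Part of this direction was therefore set by the choice of cells. T cells had more Ly6c2 (302 CPM) than the members. Of 11 lipid-handling genes, 6 were called higher and none lower (median 1.22), and of 9 lipid-associated macrophage genes, 7 were higher and 1, Lgals3, lower (814 against 2323 CPM). Spp1, osteopontin, was at 2736 against 114 CPM, Mrc1 at 653 against 39.6 CPM, and Abca1, a cholesterol exporter, at 442 against 78.5 CPM. Spp1 was skewed, with 474 CPM in the median member, 34654 CPM in the highest and 60 members without a UMI. Against Saa3 macrophages, 1 of 10 lipid-associated genes, Spp1 (1110 CPM), was called higher and 2 lower, namely the fatty acid transporter Cd36 (178 against 768 CPM) and the lysosomal protease Ctsd (830 against 2030 CPM).

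**Figure D3:**
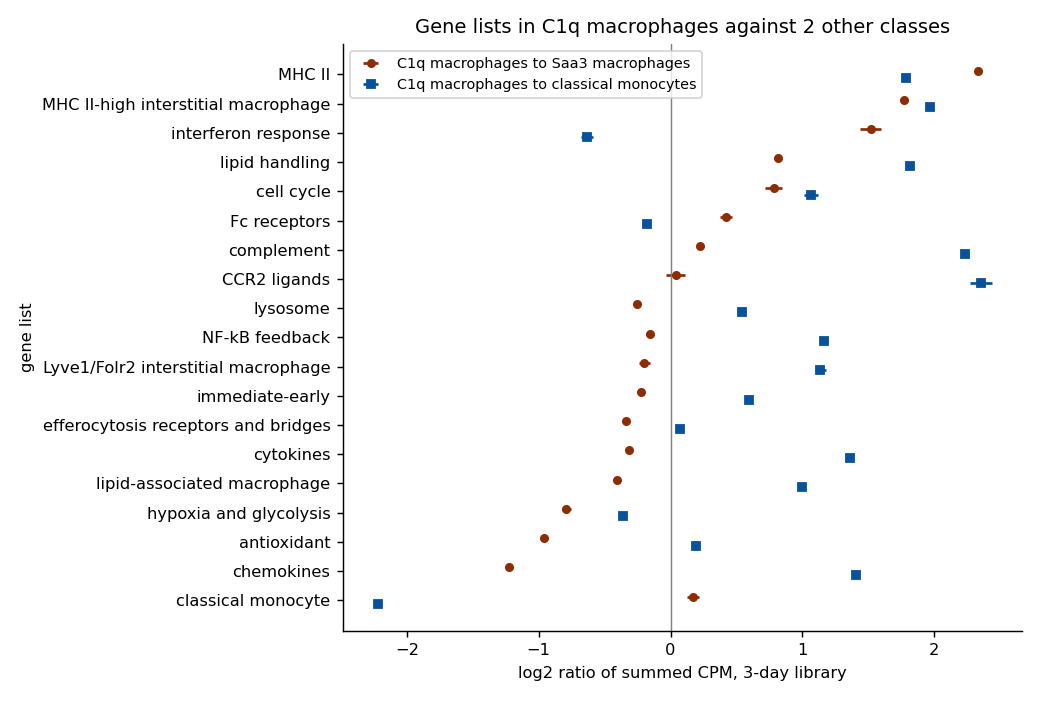
Points give the log2 ratio of a gene list's summed CPM in C1q macrophages to Saa3 macrophages (circles) and to classical monocytes (squares) in the 3-day library, with 95% counting intervals. The MHC II list stands at 2.33 and 1.78, and the CCR2 ligands at 0.04 and 2.35.

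Genes of the Lyve1+ Folr2+ list were unequal in the members at 3 days, with some rare and others abundant. The 14 genes summed to 2228 CPM in the members and 2556 CPM in Saa3 macrophages, a log2 ratio of -0.20 where the median over the 5 genes compared was 0.16. Lyve1, a hyaluronan receptor, had a UMI in 4 of 269 cells (1.20 CPM), Cd163 in 8 (5.51 CPM), Timd4, a receptor for phosphatidylserine, in 3 (4.79 CPM) and Folr2, the folate receptor beta, in 54 (33.8 CPM), and Vsig4, a complement receptor gene outside the list, had none, which allows up to 0.719 CPM. Saa3 macrophages had more Lyve1 (57.5 CPM), Cd163 (82.8 CPM) and Folr2 (81.6 CPM). In cells thinned to 2000 UMIs, a UMI of at least 1 of Lyve1, Folr2, Cd163 and Timd4 was seen in 6.8% of members (95% interval 4.01% to 10.7%), 22.6% of Saa3 macrophages (18.4% to 27.2%) and 0.104% of T cells. Other genes of the same list were present in the members, with Mrc1 at 653 CPM, F13a1, a coagulation factor gene, at 536 CPM, Pf4, platelet factor 4, at 451 CPM and Stab1, stabilin 1, at 209 CPM. Of the 5 list genes compared against Saa3 macrophages none was called in either direction. Of 10 genes of the MHC II-high list, 8 were called higher, among them Cx3cr1, Ccr2, Tmem176b (497 against 108 CPM) and 4 MHC II genes. Il10 and Il1b were not called, at 117 against 163 CPM and 3246 against 3661 CPM.

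Dendritic cell genes were low but gathered in a few members. Flt3, the receptor for the dendritic cell growth factor, had UMIs in 23 of 269 cells (8.15 CPM) and Zbtb46, a transcription factor of conventional dendritic cells, in 5 (1.92 CPM). Ccl17 was at 107 CPM, but its 447 UMIs lay in 9 cells, with 206 in 1 of them, and Ccl22 had UMIs in 8 cells. Mgl2, a lectin gene shared by dendritic cells and macrophages, was seen in 46 cells and 10 of them held 74.9% of its UMIs. At least 5 UMIs of Ccl17, Ccl22 and Ccr7 together were found in 9 members.

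The members varied in MHC II RNA. Cells were ordered by the share of their UMIs on H2-Aa, H2-Ab1, H2-Eb1 and Cd74 and divided into 90 low, 89 middle and 90 high cells, with 294, 5502 and 32375 CPM on these genes, a spread that the ordering itself sets. Median depths were 14756.5, 12496 and 17354 UMIs. Apoe was nearly even, at 7911, 8078 and 7469 CPM, and so were the C1q chains, at 6325, 5757 and 5574 CPM. Ms4a7 went down the order at 561, 200 and 151 CPM, Fcrls at 601, 301 and 90.2 CPM, Pf4 at 1012, 332 and 80.1 CPM, and Spp1 at 4043, 2715 and 1704 CPM. Il1b, the gene of interleukin 1 beta, went the other way, at 1286, 3402 and 4713 CPM, and Ccr2 was at 578, 967 and 944 CPM. Across 250 members thinned to 2000 UMIs, Spearman's rho of MHC II RNA was -0.39 with Pf4, -0.29 with Fcrls, 0.37 with Il1b, 0.00 with the C1q chains and 0.20 with depth before thinning. Cells of 1 library are not replicates, and these values describe that library.

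**Figure D4:**
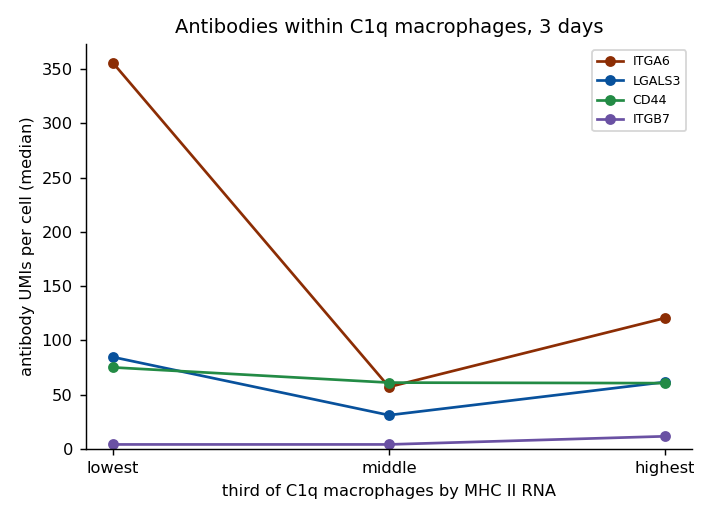
The plot gives the median antibody UMIs per cell of 4 antibodies in C1q macrophages of the 3-day library with low, middle and high MHC II RNA (90, 89 and 90 cells). ITGA6 stands at 355.5, 57 and 120.5.

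Proliferation genes were seen in some members. The genes Mki67 and Top2a were at 81.5 and 93.2 CPM, against 44.4 and 40.8 CPM in Saa3 macrophages and 5.36 and 3.04 CPM in classical monocytes. In 36 of 269 members (13.4%) at least 3 UMIs of the pair were found, and these cells held 91.6% of the pair's UMIs in the members. In cells thinned to 2000 UMIs, 13.2% of members (95% interval 9.26% to 18.0%), 6.99% of Saa3 macrophages (4.61% to 10.1%) and 2.9% of T cells had a UMI of either gene. The intervals of the 2 macrophage classes overlapped.

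Surface antibodies gave a readout that the rule did not use. The 2 transplant libraries hold counts of 277 antibody tags, 9 of them isotype controls, with target names as for human proteins, and 5 antibodies, CD44, ITGA6, ITGB7, CD45R and LGALS3, exceeded the highest isotype control. Together these 5 made up 98.5% of antibody UMIs at 3 days, and antibodies named FCGR1A, MERTK, ITGAM, CD14, CCR2 and CD86 had 0 UMIs in the members, while CX3CR1 had 5, CD45 2 and HLA_DR 1. ITGA6, the integrin alpha 6 chain that binds laminin, ranged from 0 to 3576 UMIs in the 269 members with a median of 169, from 0 to 2011 (median 103.5) in Saa3 macrophages, and had medians of 19 in classical monocytes and 14 in T cells. The 10 alveolar macrophages at 3 days had a higher ITGA6 median than the members, at 243 (2 to 762), and an LGALS3 median of 47.5. LGALS3 (galectin 3, also called Mac-2) ranged from 0 to 737 with a median of 58, against medians of 26, 27 and 2. The ranges of all these classes overlapped. The 9 isotype controls summed to a mean of 5.79 UMIs in a member, 9.22 in a Saa3 macrophage, 1.10 in a classical monocyte and 0.718 in a T cell, so nonspecific signal was higher in macrophages but smaller than the ITGA6 and LGALS3 means of 278 and 88.8.

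As a share of antibody UMIs, ITGA6 and LGALS3 were higher in the members than in the other kept cells at 3 days, with log2 ratios of 0.91 (0.90 to 0.92) and 0.85 (0.83 to 0.87). Per cell the ratios were 2.85 and 2.79. CD44 was lower as a share (-0.87) and higher per cell (1.07), so its direction depended on the scale. ITGB7, the integrin beta 7 chain, was lower on both scales (-2.97 and -1.03), with a median of 5 in the members, 3 in Saa3 macrophages, 63 in classical monocytes and 29 in B cells. CD45R, a B cell antigen, had a mean of 1.21 in the members and 17.9 in B cells. At 2 hours the 2 C1q-positive cells had 252 antibody UMIs in all, with 33 for ITGA6, 33 for ITGB7, 8 for LGALS3 and 170 for CD44.

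Among the 3 myeloid classes, RNA and antibody ran in the same order for ITGA6 but not for LGALS3. Itga6 RNA was at 157 CPM in the members, 71.0 CPM in Saa3 macrophages and 9.37 CPM in classical monocytes, but at 88.6 CPM in T cells, whose antibody median was 14. Itgb7 RNA was at 34.3, 40.6 and 205 CPM in the same 3 myeloid classes, with mean antibody UMIs of 12.2, 7.27 and 67.3, so that both were highest in classical monocytes. Lgals3 RNA was at 814, 730 and 2323 CPM, while the mean LGALS3 antibody UMIs were 88.8, 39.2 and 29.6. Within the members, ITGA6 antibody medians were 355.5, 57 and 120.5 in the cells with low, middle and high MHC II RNA, and ITGB7 medians were 4, 4 and 11.5. Across the 250 thinned members Spearman's rho of the ITGA6 antibody was 0.47 with Fcrls, 0.44 with Ms4a7, 0.63 with the LGALS3 antibody and 0.24 with RNA depth. Antibody counts were not thinned, so these values share the depth of the cell.

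**Figure D5:**
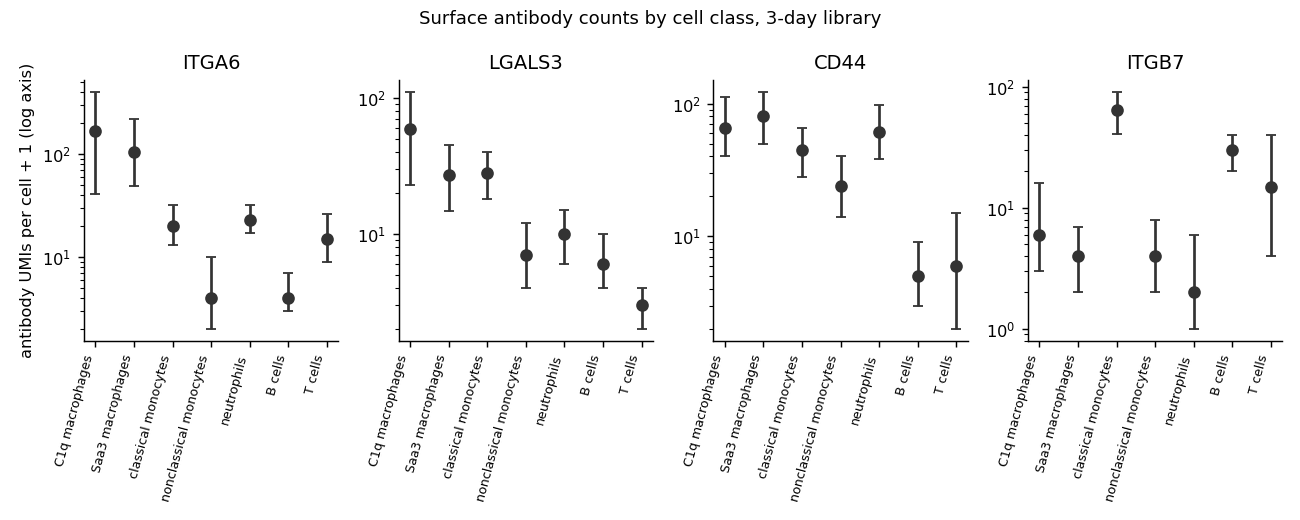
Points give the median and bars the quartiles of antibody UMIs per cell plus 1 (log axis) for 4 antibodies in 7 classes of the 3-day library. The median of ITGA6 is 169 and of LGALS3 58 in C1q macrophages, the highest of the plotted classes, though the 10 alveolar macrophages, which are not plotted, had an ITGA6 median of 243, while ITGB7 is highest in classical monocytes.

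A comparison of the 3-day members with the 2 C1q-positive cells at 2 hours was planned, and it compares unlike cells. At least 2-fold differences were found for 329 of 1761 genes higher at 3 days (18.7%) and 579 lower (32.9%), on 6263 UMIs at 2 hours. The 10 largest higher at 3 days, Apoe, Lyz2, Fn1, Thbs1, Spp1, Ctss, Gpx1, Ctsc, Lgmn and Ier3, all had 0 UMIs at 2 hours, and 3 counts over the 2 cells would be 479 CPM, so that Apoe was at least 16.2-fold and Spp1 at least 5.71-fold higher at 3 days. The 10 largest lower at 3 days were Ccl5, Ccl22, Ccr7, Hsf2, Ccl17, Atr, Pdcd4, Il4i1, Ptpn22 and Hist1h2bc, and Ccl5 had all of its 68 UMIs at 2 hours in 1 cell. As summed log2 ratios, the lysosome list was at 3.01 (2.26 to 3.88), the MHC II list at -0.78 (-0.98 to -0.57) and the immediate-early list, whose genes answer stimuli within minutes, at 0.69 (0.21 to 1.22). The MHC II list had no single direction, since 3 of its 8 genes compared were called higher and 1 lower, with a median log2 ratio of 0.54, opposite in sign to the sum, against a median of -0.62 over all genes. In T cells of the same libraries the 3 summed ratios were 0.70, 0.79 and -0.99. Without the 2 cells no such ratio exists.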

How the data were processed

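The authors counted reads with Cell Ranger on mm10 (per the file headers, 7.1.0 in naive lungs and 6.0.0 after transplantation) and deposited raw UMI counts per gene and cell. The labels name 5′ and 3′ kits and the methods a 3′ kit, so the chemistry is not settled here. The members and gene lists were chosen with earlier results of these data known. From the deposited counts (32245 gene symbols; Python 3.11.15, scanpy 1.11.5), cells with more than 200 genes and under 10% mitochondrial UMIs were kept, with no upper limit. Classes followed UMI rules, applied in a fixed order starting with C1q macrophages. Some genes used by the rules or lists are not reported here. UMIs were summed over a class and scaled to CPM. With 1 library per group there was no test: shares have exact Clopper-Pearson intervals and ratios exact conditional intervals, all at 95%. Ratios for calls used CPM plus 50, and a call meant at least 2-fold where the mean reached 100 CPM. On simulated counts of 1658 genes for the contrast with Saa3 macrophages, 97.5% of 200 genes changed by 2 log2 units were called. Doublets were called per library with Scrublet but kept. Named genes were all of the marker lists given, the 3 most abundant of other lists, the 10 largest ratios to 2 hours per direction, and the 15 leading genes; others were chosen after their values were seen. The libraries shared 8 (naive and 2 hours), 1 (naive and 3 days) and 23 (2 hours and 3 days) cell barcodes, 1 of them a member's. Antibody counts came from the same deposited files. Gene positions are from the GRCm38 annotation, promoters from RefSeq.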

Additional observations from a re-analysis of the deposited data

How the results depend on the processing

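No paired analysis was possible because each condition has 1 library. Alternatives for the contrasts with the other 3-day classes were chosen after seeing the data. The 3-day share of 3.16% was 2.55% with at least 5 C1q UMIs and 0.2%, 2.51% without members holding Cd79a, Cd3 or S100a8 and S100a9 RNA, and 2.13% after thinning to 500 UMIs. The 2-hour share was 0 under these 3 and with a further macrophage marker required, so no ratio to 2 hours could be made there. With a minimum of 50 or 200 CPM, 777 or 159 genes were called higher at 3 days than at 2 hours and 1104 or 301 lower. The MHC II ratio to 2 hours was -1.01 as a mean over cells and -1.57 with the T cell ratio subtracted, where the immediate-early ratio was 1.68. Thinning to 500 UMIs gave 119 genes higher and 156 lower than in Saa3 macrophages, and 196 higher and 198 lower than in classical monocytes; a minimum of 200 CPM gave 49 lower than in the former and 71 higher than in the latter. The cause was not tested. The MHC II ratio to Saa3 macrophages was 2.22 with the study's upper limits, 2.30 with at least 5 C1q UMIs, 2.38 thinned and 2.09 as a mean over cells. The CCR2 ligand ratio (0.04) was 0.16 with the upper limits, 0.16 with at least 5 C1q UMIs and 0.45 thinned. Antibody UMIs per cell against Saa3 macrophages gave log2 ratios of 0.63 for ITGA6 and 1.18 for LGALS3; these were 0.56 and 1.12 with the upper limits, 0.79 and 1.37 with at least 5 C1q UMIs, 0.65 and 1.14 without members holding RNA of other cells, 0.60 and 1.22 with a further marker, and 0.38 and 1.27 thinned. Per cell in place of share, CD44 reversed to 1.07 from -0.87, and ITGA6, LGALS3 and ITGB7 were 2.85, 2.79 and -1.03. The other 72 values moved by less than their counting intervals or, for gene counts, under 1.5 times. Depth limits the naive and 2-hour values, which rest on 64621 and 6263 UMIs.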

Other observations

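The counts of further gene groups stand beside the shares over all genes, which were 3.44% called higher and 4.64% lower against Saa3 macrophages, and 7.77% higher and 4.3% lower against classical monocytes. With 4 to 20 genes compared in a group, counts of 0 or 1 are not set apart from these shares. Of 15 macrophage transcription factor genes compared with Saa3 macrophages, 1 was called higher and none lower. Of 20 lysosome genes, none was called higher and 1, Ctsd, lower, while against classical monocytes 6 of 20 were higher and none lower. Of 9 NF-kB feedback genes and 4 heat shock genes, none was called in either direction against Saa3 macrophages. Of 5 heme and iron genes, 1 was lower, namely Hmox1.

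The interferon response list summed to 1110.1 CPM in the members, 388 CPM in Saa3 macrophages and 1724 CPM in classical monocytes. Its most abundant gene, Ifi27l2a, was at 476, 95.4 and 734 CPM, and at 358 CPM in T cells, and Isg15, a ubiquitin-like protein gene, was at 74.1, 12.2 and 88.2 CPM. Axl, a receptor for apoptotic cells, was at 134 CPM in the members against 28.6 CPM in Saa3 macrophages and 10.1 CPM in classical monocytes. C3, the central complement protein, was at 76.9, 168 and 365 CPM in these classes.

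The rest of the marker lists in the members at 3 days, against Saa3 macrophages, was as follows. Among core macrophage genes, Fcgr1 (CD64) was at 121 against 26.8 CPM, Cd68 at 224 against 129 CPM, Sirpa at 498 against 466 CPM, Cd63 at 225 against 147 CPM and Itgam (CD11b) at 680 against 2182 CPM. Among Lyve1+ Folr2+ macrophage genes, F13a1 was at 536 against 474 CPM, Cbr2 at 44.1 against 110 CPM, Igf1 at 49.1 against 69.0 CPM, Gas6 at 17.0 against 13.3 CPM and Fcna at 4.55 against 114 CPM. Among MHC II-high macrophage genes, Cd72 was at 182 against 14.0 CPM, Cd81 at 148 against 25.9 CPM, Tmem176a at 398 against 85.5 CPM and Tmem119 at 34.3 against 9.70 CPM. Among lipid-associated genes, Ctsb was at 2312 against 4393 CPM, Lpl at 360 against 749 CPM, Plin2 at 313 against 498 CPM, Cd9 at 467 against 544 CPM and Fabp5 at 101 against 174 CPM, while Gpnmb and Apoc1 were under 20 CPM in both classes.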
